A study of Mus musculus with 8 samples.

Results

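The genes described here are 10 genes of the bombesin, neurotensin, thyrotropin-releasing hormone and oxytocin/vasopressin systems, out of 38553 genes in a comparison of dorsal and ventral medial entorhinal cortex (MEC) by RNA-Seq. They were matched by gene symbol, and all 10 were found: the peptide precursor genes *Grp*, *Nmb*, *Nts* and *Trh*, and the receptor genes *Grpr*, *Nmbr*, *Ntsr1*, *Trhr*, *Oxtr* and *Avpr1a*. The set was chosen with these measurements known, because several of its genes had higher ventral expression, so the regional differences of the 10 genes are given as a description, without p-values, and nothing is concluded from how many of them passed the test run over all genes. The tissue was brain of 13 C57BL/6JolaHsd mice, male and 8 weeks old, without transgene or treatment. A sagittal slice of 400 µm through the right MEC was taken from each brain, its dorsal and ventral regions were microdissected, and the tissue of 3 or 4 mice was pooled per sample, giving 4 dorsal and 4 ventral libraries. The spread between libraries is therefore that between pools, and in pooled tissue fewer cells of a type and less RNA per cell cannot be told apart.

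These peptides are cut from larger precursor proteins, stored in dense-core vesicles and released to act at G-protein-coupled receptors, often at some distance from the site of release. Gastrin-releasing peptide (*Grp*) and neuromedin B (*Nmb*) are the mammalian bombesin-like peptides, and each has a preferred receptor, GRPR and NMBR. Neurotensin (*Nts*) binds NTSR1 with high affinity, thyrotropin-releasing hormone (*Trh*) binds TRHR, and oxytocin and vasopressin, made mainly in the hypothalamus, bind OXTR and AVPR1A. All 6 receptors couple to Gq/11 proteins, which activate phospholipase C beta, release calcium from internal stores and activate protein kinase C. In cortical and hippocampal tissue such receptors are known to change the excitability of interneurons and principal cells.

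Expression is given as FPKM, fragments scaled to transcript length and to the fragments mapped in the library, which allows levels to be compared between genes. The value of a gene is the sum over its transcripts, whose lengths can differ. It therefore need not follow the fragment numbers between libraries. The fragments assigned to genes numbered 11435081 to 15359782 in dorsal and 10780902 to 14535142 in ventral libraries. For 4 of the 8 libraries the column header names a region other than the one used here. Those under D1, V1, D2 and V2 were taken as dorsal and those under D3, V3, D4 and V4 as ventral. The means over these columns equal those of the conditions in the deposited comparison within 0.1% for 14975 of 14989 genes, against 141 under the headers. This match shows which libraries form each condition, but not which condition is dorsal. The latter was set by a rule given for this work and was not read from the deposited values. Values of a gene are listed below in the order D1, V1, D2, V2, D3, V3, D4 and V4. Every direction given here rests on that assignment: with the regions that the headers name, the log2 ratios of ventral to dorsal expression were 0.18 for *Grp*, 0.11 for *Nts*, 0.011 for *Oxtr*, -0.0067 for *Nmbr*, -0.26 for *Ntsr1*, -0.33 for *Trh* and -0.27 for *Trhr*. In the 4 libraries for which header and assignment give the same region (D1, D2, V3 and V4) they were 1.91, 2.32, 1.59, 1.53, 0.27, 1.30 and 2.37 in that order of genes.

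**Figure D1:**
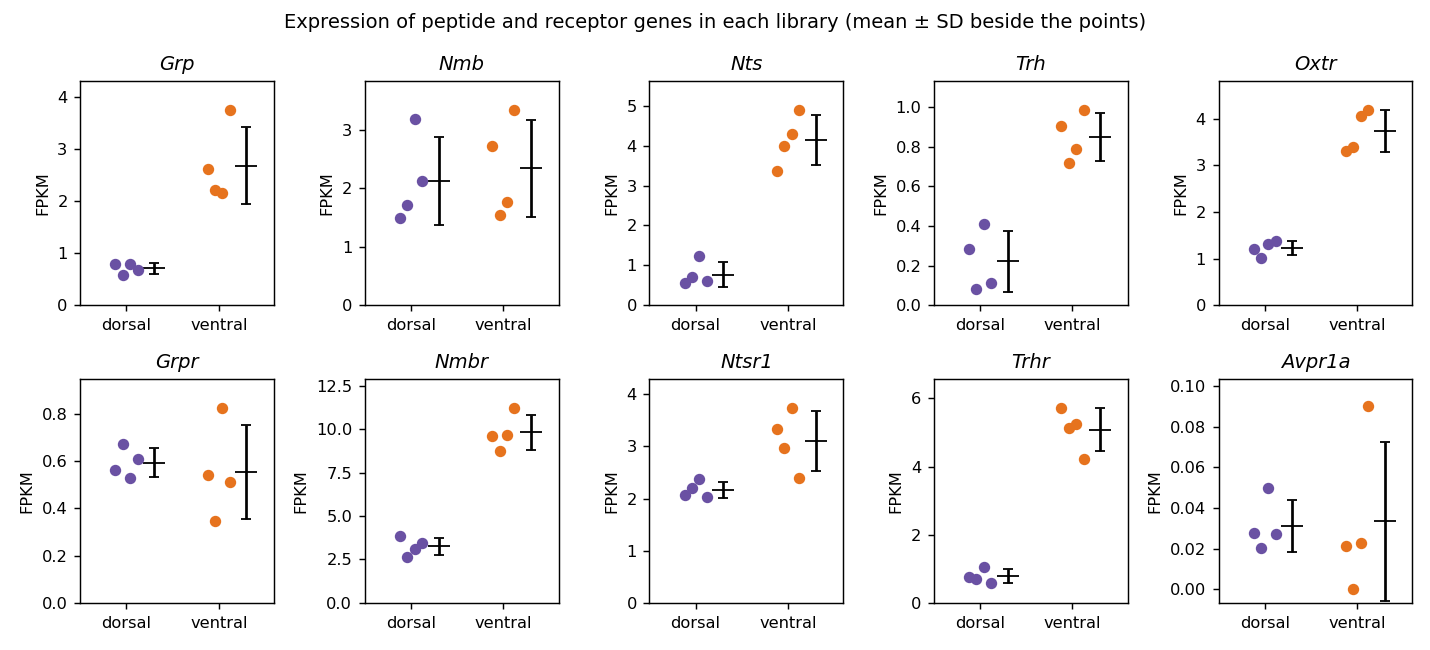
FPKM of the 10 genes in each library, with peptide precursors and *Oxtr* above and the other receptors below. Each point is a library, purple for dorsal and orange for ventral MEC, and bars give the mean ± SD of 4 libraries. For *Grp*, *Nts*, *Trh*, *Oxtr*, *Nmbr*, *Ntsr1* and *Trhr* every orange point lies above every purple point, whereas the points overlap for *Nmb*, *Grpr* and *Avpr1a*.

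Among the 10 genes, 7 had a higher FPKM in every ventral library than in any dorsal library, a pattern shown by 4.95% of the 13674 genes tested. None showed the opposite pattern, which 6.17% of tested genes showed. The ventral to dorsal ratio of mean FPKM was 6.54 for *Trhr*, 5.38 for *Nts*, 3.83 for *Trh*, 3.79 for *Grp*, 3.05 for *Oxtr*, 3.02 for *Nmbr* and 1.44 for *Ntsr1*. In the remaining genes, *Nmb*, *Grpr* and *Avpr1a*, the ratio lay between 0.936 and 1.10 and the libraries of the regions overlapped. A gene was called V>D or D>V at a Benjamini-Hochberg adjusted p under 0.05 in limma and a difference of at least 20%. By that rule 198 genes (1.45%) were V>D and 294 (2.15%) were D>V. Testing was limited to genes that averaged 1 FPKM or more and were marked as tested in the deposited comparison. This left 7 of the 10 genes, and 5 of these (*Grp*, *Nmbr*, *Nts*, *Trhr* and *Oxtr*) were V>D, against 3.6% of tested genes called in either direction. An edgeR test of the fragment numbers, added after seeing the data, called 2.86% of genes V>D and 3.43% D>V. The genes were chosen on this contrast, so these calls describe the choice and are no independent evidence.

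The promoters of 4 genes with more than 3-fold higher ventral expression are shown because these genes share a regional difference. The sequences are RefSeq promoters on GRCm38.p6, from 250 bases before to 50 bases after the start site, and were obtained for 8 of the 10 genes. Promoters of the chromosome that carries *Grp* were left out before the search, also from the promoters used for comparison. They are written 5′ to 3′ on the strand of the gene, the minus strand for *Nts* (chr10:102490369-102490668), *Trh* (chr6:92244601-92244900) and *Oxtr* (chr6:112489776-112490075) and the plus strand for *Nmbr* (chr10:14759697-14759996). The *Nmbr* window lies inside the annotated gene (chr10:14705591-14770850), which has 8 transcripts, and no window at the start of that span was examined. Capitals mark every match on either strand to 5 motifs: the TATA box TATAAA, the cAMP response element or CRE with the letters TGACGTCA, the AP-1 motif with TGACTCA, the CCAAT box, and the GC box with GGGCGG. No match overlaps another.
Nts: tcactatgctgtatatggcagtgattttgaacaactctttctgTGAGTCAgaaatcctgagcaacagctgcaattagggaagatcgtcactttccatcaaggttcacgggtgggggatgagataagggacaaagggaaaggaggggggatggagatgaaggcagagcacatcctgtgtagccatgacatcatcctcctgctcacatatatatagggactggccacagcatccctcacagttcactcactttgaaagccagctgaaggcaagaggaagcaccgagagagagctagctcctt
Trh: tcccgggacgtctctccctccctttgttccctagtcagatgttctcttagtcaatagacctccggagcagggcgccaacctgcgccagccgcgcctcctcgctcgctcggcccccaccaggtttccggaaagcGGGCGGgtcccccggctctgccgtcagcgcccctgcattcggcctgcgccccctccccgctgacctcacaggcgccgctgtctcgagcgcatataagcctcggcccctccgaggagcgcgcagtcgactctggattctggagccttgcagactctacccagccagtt
Oxtr: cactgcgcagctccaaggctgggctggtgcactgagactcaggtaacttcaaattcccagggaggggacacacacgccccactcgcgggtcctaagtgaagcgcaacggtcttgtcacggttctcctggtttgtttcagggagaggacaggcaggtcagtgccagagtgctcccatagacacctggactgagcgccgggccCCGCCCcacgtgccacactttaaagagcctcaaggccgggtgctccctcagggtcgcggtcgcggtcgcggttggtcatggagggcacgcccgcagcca
Nmbr: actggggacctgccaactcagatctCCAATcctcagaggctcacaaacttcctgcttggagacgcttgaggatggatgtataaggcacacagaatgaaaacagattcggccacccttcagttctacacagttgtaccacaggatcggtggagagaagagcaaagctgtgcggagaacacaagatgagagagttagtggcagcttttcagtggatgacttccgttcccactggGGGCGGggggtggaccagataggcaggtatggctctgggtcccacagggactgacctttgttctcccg
The *Nts* promoter holds TGACTCA, the AP-1 motif, on the opposite strand starting 207 bases before the start site, a motif found in 5.20% of 32851 promoters of the same length. The *Trh*, *Oxtr* and *Nmbr* promoters hold the GC box GGGCGG, which 35.7% of promoters hold, and *Nmbr* also holds CCAAT, which 37.4% hold. None of the 4 holds TATAAA, found in 13.6% of promoters, or the CRE letters TGACGTCA, found in 1.79%. CpG dinucleotides numbered 28 in *Trh*, 20 in *Oxtr*, 7 in *Nmbr* and 3 in *Nts*, against a median of 7 over the 32851 promoters. None of the 5 motifs was common to all 4 promoters, and their GC content ranged from 49.0% in *Nts* to 67.0% in *Trh*, around a median of 52.7%. A match to such letters is a description of the sequence and not evidence of binding.

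Of the precursor genes, *Nts* had the highest ratio. Its gene lies on chromosome 10 (chr10:102481756-102490486, minus strand, GRCm38) and encodes the precursor of neurotensin and neuromedin N. The dorsal libraries gave 0.547, 0.701, 1.23 and 0.602 FPKM and the ventral libraries 3.37, 4.00, 4.30 and 4.89 FPKM. The lowest ventral library was well above the highest dorsal one, which was headed D2. Mean expression was 0.770 ± 0.312 FPKM in dorsal and 4.14 ± 0.631 FPKM in ventral MEC (SD, n = 4 each), a log2 ratio of 2.43. These levels rest on 51 fragments over the dorsal and 273 over the ventral libraries.

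*Trh*, which encodes the precursor of thyrotropin-releasing hormone, lies on chromosome 6 (chr6:92242061-92244650, minus strand). It was weakly expressed, at 0.284, 0.0833, 0.408 and 0.111 FPKM in the dorsal and 0.907, 0.717, 0.790 and 0.985 FPKM in the ventral libraries. The regions did not overlap, but the dorsal values come from 2 to 8 fragments per library and the ventral values from 14 to 21. The means were 0.222 ± 0.153 and 0.850 ± 0.119 FPKM (SD, n = 4 each), and the coefficient of variation between dorsal libraries, 68.9%, compares with 48.5% from the counting of fragments alone. With a mean under 1 FPKM, *Trh* was not among the genes tested.

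*Grp*, the gastrin-releasing peptide gene, was at 0.787, 0.576, 0.799 and 0.675 FPKM in dorsal and at 2.61, 2.22, 2.16 and 3.75 FPKM in ventral libraries. All ventral libraries exceeded all dorsal libraries, and the library headed V4 stood highest. The means were 0.709 ± 0.105 and 2.69 ± 0.737 FPKM (SD, n = 4 each), from 31 dorsal and 124 ventral fragments. *Nmb*, the neuromedin B gene on chromosome 7 (chr7:80902227-80905076, minus strand), behaved otherwise, with 1.495, 1.71, 3.18 and 2.12 FPKM in dorsal and 2.72, 1.55, 1.76 and 3.34 FPKM in ventral libraries. Here the regions overlapped over nearly their whole ranges, and the means were 2.13 ± 0.748 and 2.34 ± 0.836 FPKM (SD, n = 4 each). The exons of *Nmb* overlap those of *Sec11a*, a signal peptidase gene on the same strand with a mean of 17.7 FPKM, so that the division of fragments between these genes is uncertain.

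Among the receptors, *Trhr* had the highest ratio of the 10 genes. It lies on chromosome 15 (chr15:44196135-44235912, plus strand) and was at 0.748, 0.710, 1.07 and 0.586 FPKM in dorsal and 5.72, 5.12, 5.26 and 4.23 FPKM in ventral libraries. The lowest ventral library, headed V4, was far above the highest dorsal library, headed D2. In D2 the value of 1.07 FPKM came from 29 of 12738731 fragments, while 39 of 15359782 in V1 gave 0.710 FPKM. The order of the dorsal libraries thus does not follow the fragment numbers. The means of 0.778 ± 0.204 and 5.08 ± 0.622 FPKM (SD, n = 4 each) differed by 2.71 on the log2 scale. The receptor was counted on 121 dorsal and 837 ventral fragments and its peptide precursor on 17 and 68, over a gene model with 4000 exon bases against 1384 for *Trh*.

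*Nmbr*, the neuromedin B receptor on chromosome 10 (chr10:14705591-14770850, plus strand), had the highest mean of the 10 genes in both regions. It was at 3.82, 2.66, 3.10 and 3.43 FPKM in dorsal and 9.62, 8.76, 9.64 and 11.2 FPKM in ventral libraries, with means of 3.25 ± 0.493 and 9.81 ± 1.02 FPKM (SD, n = 4 each). In the dorsal library headed D2, *Nmb* was slightly above *Nmbr* (3.18 against 3.10 FPKM). Of all genes marked as tested in the deposited comparison, 49.5% had a lower mean than *Nmbr*, 29.6% a lower mean than *Trhr* and 18.5% a lower mean than *Grp*. Its exons overlap *B230364G03Rik*, annotated on the opposite strand, which was itself at a mean of 0.287 FPKM and overlapped between regions.

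*Oxtr*, the oxytocin receptor on chromosome 6 (chr6:112473683-112489943, minus strand), was at 1.20, 1.02, 1.31 and 1.37 FPKM in dorsal and 3.31, 3.39, 4.05 and 4.18 FPKM in ventral libraries. The regions were far apart relative to the spread within each, with means of 1.22 ± 0.155 and 3.73 ± 0.443 FPKM (SD, n = 4 each). *Oxtr* was counted on 343 dorsal and 1065 ventral fragments. *Ntsr1*, the high-affinity neurotensin receptor on chromosome 2 (chr2:180499976-180544980, plus strand), was at 2.06, 2.20, 2.37 and 2.02 FPKM in dorsal and 3.34, 2.97, 3.73 and 2.39 FPKM in ventral libraries. The lowest ventral library, headed V4, exceeded the highest dorsal library by a narrow margin. The means were 2.17 ± 0.157 and 3.11 ± 0.573 FPKM (SD, n = 4 each).

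The remaining receptors did not separate the regions. *Grpr*, on chromosome X (chrX:163513904-163549677, minus strand), was at 0.561, 0.673, 0.530 and 0.608 FPKM in dorsal and 0.540, 0.346, 0.825 and 0.511 FPKM in ventral libraries. The ventral libraries lay on both sides of the dorsal range, and the means were 0.593 ± 0.0621 and 0.555 ± 0.199 FPKM (SD, n = 4 each). *Avpr1a*, the vasopressin V1a receptor on chromosome 10 (chr10:122448499-122453452, plus strand), had 10 fragments over all 8 libraries and 0 to 3 in any of them, with 0.0204 to 0.0499 FPKM in dorsal and up to 0.0901 FPKM in ventral libraries. A regional difference in *Avpr1a* was not detectable at this depth. The genes of oxytocin and vasopressin themselves, *Oxt* and *Avp*, are listed at 0 FPKM in all 8 libraries, and an entry of 0 is not read as absence.

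**Figure D2:**
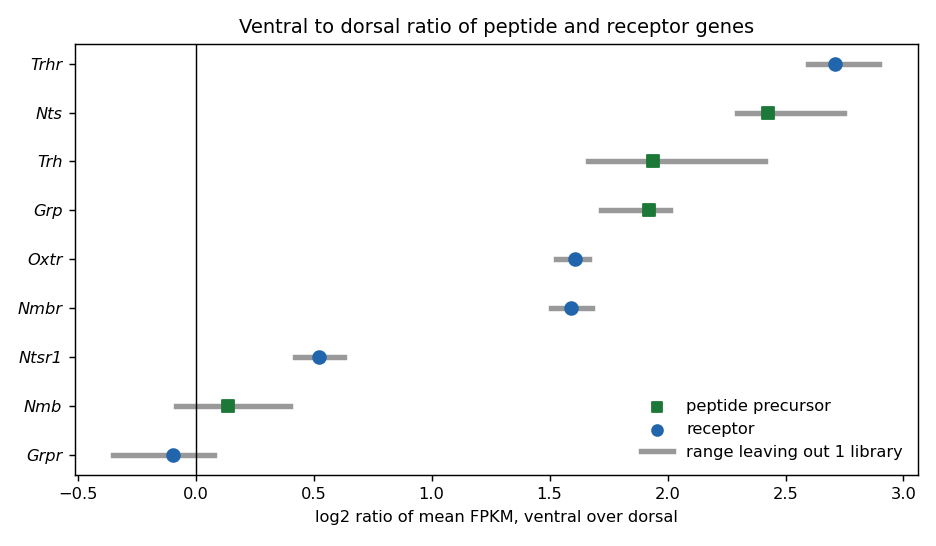
Ventral over dorsal mean FPKM, as a log2 ratio, for 9 of the 10 genes, with green squares for peptide precursors, blue circles for receptors and grey lines for the range over fits that leave out 1 of the 8 libraries. *Trhr* (2.71) and *Nts* (2.43) lie farthest to the right, *Ntsr1* lies at 0.52, and the lines of *Nmb* and *Grpr* cross 0. *Avpr1a*, with 10 fragments in all, is not drawn.

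Peptide and receptor shifted together in some systems and not in others. *Trh* and *Trhr* were both higher ventrally, by 1.94 and 2.71 on the log2 scale. In the neurotensin system *Nts* was higher by 2.43 but *Ntsr1* by 0.52 only. In the bombesin systems the regional difference stood on opposite sides: *Grp* was higher ventrally by 1.92 while its receptor *Grpr* was at -0.09, and the receptor *Nmbr* was higher by 1.59 while its peptide *Nmb* was at 0.14. RNA of dissected tissue does not show whether peptide and receptor are made by neighbouring cells, and peptide that reaches the MEC from other brain regions leaves no precursor RNA there.

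The ratio of peptide to receptor FPKM within each library restates these differences, since it is computed from the same values. *Grp* per *Grpr* was 1.22 ± 0.295 in dorsal and 5.30 ± 2.06 in ventral libraries (SD, n = 4 each), and *Nts* per *Ntsr1* was 0.350 ± 0.114 and 1.39 ± 0.461. Both ratios were higher in every ventral library than in any dorsal library, and *Nts* passed from below its receptor in all dorsal libraries to above it in all ventral libraries. *Nmb* per *Nmbr* moved the other way, from 0.670 ± 0.263 to 0.235 ± 0.0640 without overlap. *Trh* per *Trhr* was 0.268 ± 0.135 and 0.170 ± 0.0422, and its ventral range of 0.140 to 0.233 lay within the dorsal range of 0.117 to 0.383. With 2 to 8 *Trh* fragments per dorsal library, this overlap cannot show whether peptide and receptor changed to the same degree.

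**Figure D3:**
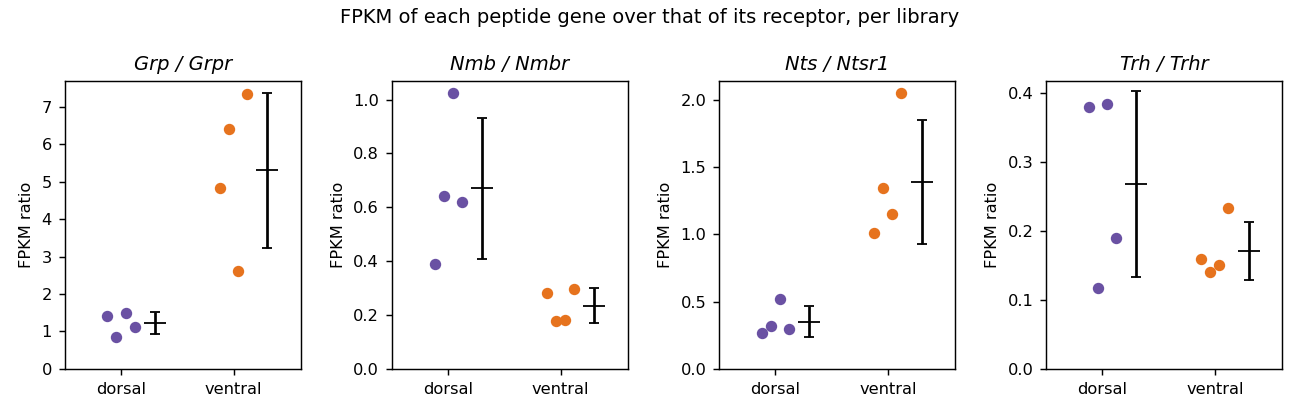
FPKM of each peptide precursor gene divided by that of its receptor in each library, on linear axes from 0, with bars for the mean ± SD of 4 libraries. *Grp*/*Grpr* and *Nts*/*Ntsr1* are higher in all ventral (orange) than in all dorsal (purple) libraries, *Nmb*/*Nmbr* is lower in all ventral libraries, and *Trh*/*Trhr* overlaps.

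The order of the 10 genes by mean level differed between the regions, and overlap was compared only between neighbours in that order. In dorsal MEC *Nmbr* came first, followed by *Ntsr1* and *Nmb*, whose library ranges overlapped, and then by *Oxtr*, *Trhr*, *Nts*, *Grp* and *Grpr*, among which the range of each gene overlapped that of the next, and by *Trh* and *Avpr1a*. In ventral MEC *Nmbr* again came first and stood apart from the second, *Trhr*. From *Trhr* through *Nts*, *Oxtr*, *Ntsr1*, *Grp* and *Nmb* each gene overlapped the next, and *Trh*, *Grpr* and *Avpr1a* closed the order, with *Trh* and *Grpr* overlapping. *Trhr* thus moved from the fifth place to the second, and *Nmb* from the third to the seventh.

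Within a region, single libraries recurred at the extremes. The library headed D2 was the highest dorsal library for 7 of the 10 genes, *Grp*, *Nmb*, *Nts*, *Ntsr1*, *Trh*, *Trhr* and *Avpr1a*, and it was the highest dorsal library for 24.7% of all genes tested. The library headed V4 was the highest ventral library for 7 genes, *Grp*, *Nmb*, *Nmbr*, *Nts*, *Trh*, *Oxtr* and *Avpr1a*, against 26.1% of all genes tested, but the lowest for *Ntsr1* and *Trhr*. V4 was also the smallest library. Some of these places rest on few fragments. For *Avpr1a*, D2 held 2 against 1 in each other dorsal library, and V4 held 3 against at most 1 in the other ventral libraries. For *Trh*, D2 held 8 against 2 to 5. *Trh*, *Grpr* and *Avpr1a* are not among the genes tested, so the shares beside these counts describe better-measured genes. Leaving out any 1 library kept each of the 7 higher ratios above 0, between 0.42 and 0.63 for *Ntsr1* and between 1.51 and 2.90 on the log2 scale for the others.

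For each gene tested, the 3 genes with the most similar expression over the 8 libraries were taken by Pearson's r of log2(FPKM + 1). These values are descriptive, since the 8 libraries share their division into regions. *Oxtr* and *Nmbr* resembled each other closely (r = 0.987), with *Nmbr* the nearest of all tested genes to *Oxtr* and *Ntf3*, the neurotrophin-3 gene, the nearest to *Nmbr* (r = 0.989). *Oxtr* was also the second nearest to *Nts* (r = 0.979), after *Igf2* (r = 0.985). The nearest to *Trhr* were *Calb2*, the calretinin gene (r = 0.987), *Gpr101* (r = 0.985) and *Syt10* (r = 0.982), and the nearest to *Grp* was *Mtss1* (r = 0.994), then *Glra2*, a glycine receptor subunit gene (r = 0.989). *Ntsr1* was nearest to *Cacna1h*, which encodes a T-type calcium channel (r = 0.986), and *Nmb*, which did not follow the regions, was nearest to *Foxp4* (r = 0.956). In the systems with both genes tested, r was 0.776 for *Nts* with *Ntsr1* and 0.201 for *Nmb* with *Nmbr*. Neither pair was among each other's 3 nearest genes, which few pairs among so many genes can be.

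Genes related to these systems were examined in 6 lists with 72 genes, of which 50 were tested, 4 were V>D and 4 were D>V. The median log2 ratio of the 50 was -0.009, against -0.005 over all genes tested, and 25 of them were higher ventrally. An unadjusted limma p under 0.05 was found for 24 of the 50, against 2191 of all 13674 genes tested. The list of other genes of the same peptide systems held 9 genes, of which 3 were tested and 0 called by limma, with 1 at an unadjusted p under 0.05. These were the neurotensin receptors *Ntsr2*, with 30.2 ± 3.33 FPKM in dorsal and 29.1 ± 1.65 FPKM in ventral MEC (SD, n = 4 each), and *Sort1*, with 94.8 ± 6.73 and 83.9 ± 4.64 FPKM, and *Cd38*, an enzyme known to act in oxytocin release, with 2.14 ± 0.296 and 2.10 ± 0.103 FPKM. *Ntsr2* and *Sort1* were thus expressed well above *Ntsr1* in both regions, and their libraries overlapped between regions where those of *Ntsr1* did not. *Brs3*, an orphan bombesin receptor gene, is listed at 0, and *Trhr2*, *Avpr1b* and *Avpr2* were below 0.2 FPKM in every library.

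All 8 genes of peptide-degrading enzymes were tested, and 0 were called by limma, with 2 at an unadjusted p under 0.05. *Trhde*, whose enzyme degrades thyrotropin-releasing hormone, was at 20.02 ± 2.06 FPKM in dorsal and 17.7 ± 2.07 FPKM in ventral MEC (SD, n = 4 each). *Lnpep*, whose enzyme cleaves oxytocin and vasopressin, was at 27.4 ± 1.82 and 24.1 ± 1.08 FPKM. *Ace* was at 2.54 ± 0.445 and 3.41 ± 0.209 FPKM, with a limma adjusted p of 0.135. The median log2 ratio of the list was -0.11.

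Of the 7 genes of precursor processing, all tested, *Pcsk1*, a prohormone convertase, was lower ventrally. It was at 21.2, 20.8, 19.7 and 17.0 FPKM in dorsal and 13.7, 14.1, 14.4 and 12.8 FPKM in ventral libraries, which did not overlap (limma log2 change -0.48 ± 0.08 SE, adjusted p = 0.00942). *Pcsk2*, the other main convertase, was at 85.5 ± 4.11 and 73.1 ± 2.39 FPKM and was not called (limma adjusted p = 0.0714). *Cpe*, whose enzyme trims the cleaved peptides, was at 571 ± 45.4 and 586 ± 45.7 FPKM. The median log2 ratio of the list was -0.12.

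Of 15 genes of Gq/11 signaling, the pathway shared by the receptors, 11 were tested, 0 were V>D and 2 were D>V, with a median log2 ratio of -0.12. *Prkcb*, a protein kinase C, was at 218 ± 3.89 FPKM in dorsal and 179 ± 3.31 FPKM in ventral MEC (SD, n = 4 each, limma adjusted p = 0.0182). *Rgs4*, which limits Gq signaling, was at 94.8 ± 4.93 and 73.6 ± 7.00 FPKM (limma adjusted p = 0.0286). *Gnaq*, the G-protein subunit itself, was at 75.2 ± 3.13 and 69.0 ± 4.18 FPKM, and *Plcb1*, the phospholipase, at 109 ± 10.7 and 88.9 ± 7.92 FPKM, and neither was called (limma adjusted p = 0.386 and 0.126).

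The 21 other neuropeptide receptor genes included 13 that were tested, of which 0 were called by limma and 7 had an unadjusted p under 0.05. Nearest to the threshold were *Tacr3*, the neurokinin B receptor, at 0.897 ± 0.351 FPKM in dorsal and 2.10 ± 0.642 FPKM in ventral MEC (adjusted p = 0.0529), and *Cckbr*, a cholecystokinin receptor, at 17.0 ± 0.838 and 12.9 ± 1.88 FPKM (adjusted p = 0.0631; SD, n = 4 each). The median log2 ratio of the tested receptors was 0.18.

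The list of other neuropeptide precursors held 12 genes, of which 8 were tested, 4 were V>D and 1 was D>V, with a median log2 ratio of 0.56. *Tac1*, the substance P precursor, was at 4.69, 3.19, 3.99 and 3.65 FPKM in dorsal and 8.67, 7.36, 7.25 and 8.44 FPKM in ventral libraries (limma log2 change 0.88 ± 0.10 SE, adjusted p = 0.00178). *Sst*, the somatostatin gene, rose from 109 ± 29.4 to 220 ± 41.1 FPKM (limma adjusted p = 0.0147). *Penk*, the enkephalin precursor, was at 1.56 to 1.90 FPKM in dorsal and 2.53 to 3.69 FPKM in ventral libraries (limma adjusted p = 0.0204), and *Tac2*, the neurokinin B precursor, was 4.39 ± 0.653 and 6.33 ± 0.665 FPKM (limma adjusted p = 0.0465). *Npy*, the neuropeptide Y gene, went the other way, from 18.4 ± 2.15 to 9.08 ± 1.87 FPKM (SD, n = 4 each, limma adjusted p = 0.00279).

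The calls of *Tac1*, *Pcsk1* and *Npy* held whichever library was left out. That of *Sst* was lost without the library headed V1, that of *Prkcb* without D1, V1, D2 or D3, that of *Penk* without D1, V1, V2, D3 or D4, that of *Rgs4* without D1, V1, D2, V2, D4 or V4, and that of *Tac2* without any of the 8. After rescaling so that all libraries had equal summed FPKM, *Pcsk1*, *Prkcb*, *Rgs4* and *Tac2* were no longer called. With edgeR on the fragment numbers *Tac2* was not called either, and *Ace*, *Adcyap1r1*, *Rgs2* and *Tacr3* were V>D and *Cckbr*, *Plcb1* and *Prkca* D>V beside the other calls.

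**Figure D4:**
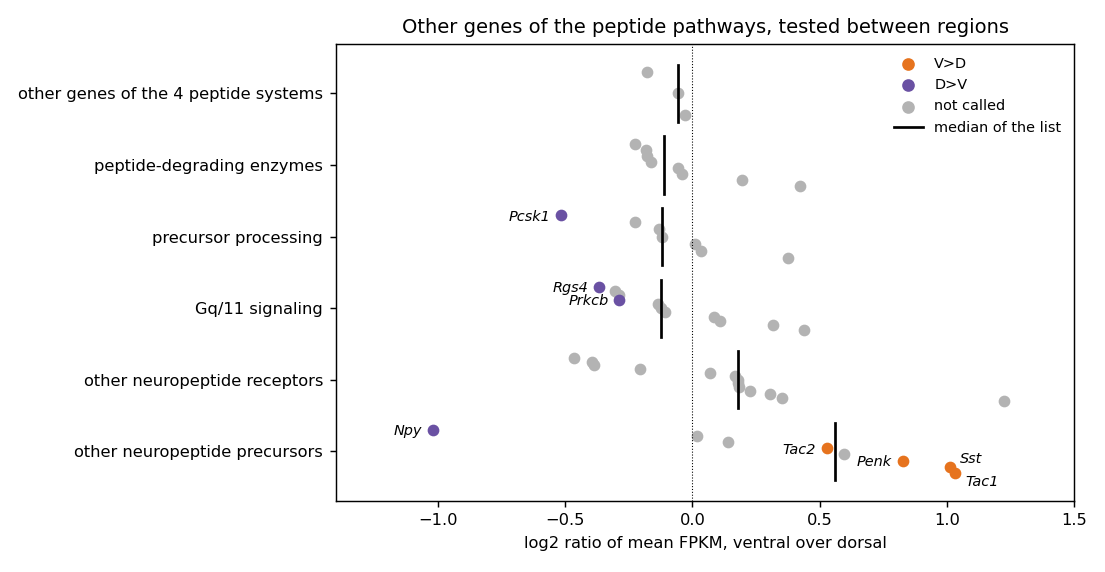
Ventral over dorsal mean FPKM, as a log2 ratio, for the 50 tested genes of the 6 related lists, with a point for each gene and a black line for the median of a list. Named points were called by limma, 4 V>D in orange and 4 D>V in purple, and grey points were not called. The median lies at 0.56 for other precursors and at -0.12 for both Gq/11 signaling and precursor processing.

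Markers of other cells and regions also differed between dorsal and ventral tissue. Oligodendrocyte genes were D>V for 5 of 5 markers, with a summed level of 767 to 1022 FPKM in dorsal and 422 to 555 FPKM in ventral libraries. Leptomeningeal genes were V>D for 2 of 5 tested (*Dcn* and *Igf2*), with sums of 66.8 to 72.3 and 108 to 122 FPKM, and hippocampal formation genes for 2 of 3 tested (*Fn1* and *Fibcd1*), with sums of 13.5 to 17.4 and 19.0 to 26.8 FPKM. Most of the hippocampal sums is *Fn1* (10.8 ± 1.67 and 16.6 ± 2.93 FPKM), and the third tested gene, *Prox1*, was at 4.48 ± 0.491 and 3.49 ± 0.462 FPKM and was not called (limma adjusted p = 0.177; SD, n = 4 each). Of 6 tested deep-layer genes 0 were called by limma, with 3 at an unadjusted p under 0.05, and their sums were 58.5 to 76.2 and 77.0 to 94.6 FPKM. Among interneuron genes, *Sst* was V>D and *Pvalb* was D>V. Among 4 superficial-layer genes, *Calb1* was V>D (4.57 ± 0.169 and 7.85 ± 2.05 FPKM, limma adjusted p = 0.0306) and *Wfs1* was D>V (76.6 ± 9.09 and 52.5 ± 4.45 FPKM, limma adjusted p = 0.0133; SD, n = 4 each). Of 3 amygdala genes, *Ppp1r1b* was D>V (10.8 ± 1.39 and 6.30 ± 0.966 FPKM, limma adjusted p = 0.0101). *Prkcd* was higher in ventral libraries without overlap (2.70 ± 0.366 and 4.50 ± 0.950 FPKM) but was not called (limma adjusted p = 0.0520). *Rspo2* was at 12.6 ± 1.54 and 12.9 ± 1.16 FPKM (SD, n = 4 each) and was not called. Of 5 tested genes each, 0 were called by limma for astrocytes, microglia and endothelial cells, with 3, 2 and 2 at an unadjusted p under 0.05. Their sums nevertheless did not overlap between dorsal and ventral libraries. These were 160 to 168 and 174 to 187 FPKM for astrocytes and 36.7 to 38.6 and 39.9 to 44.2 FPKM for microglia. For endothelial cells they were 26.9 to 30.2 and 20.8 to 25.7 FPKM, higher dorsally. The part of these cell types and layers in the higher ventral levels of the peptide and receptor genes was not tested. Of 5 choroid plexus markers, *Ttr* and *Folr1* were at most 0.13 FPKM in any library and *Otx2* is listed at 0, whereas *Kcnj13* was at 3.50 to 6.07 FPKM and *Kl* at 0.862 to 1.35 FPKM over the 8 libraries, and neither of these was called. The 4 markers of GABAergic neurons had sums of 140 to 143 FPKM in dorsal and 138 to 150 FPKM in ventral libraries, with 0 called by limma and 2 at an unadjusted p under 0.05. These 2 went opposite ways without overlap, *Gad1* higher dorsally (60.9 ± 1.85 and 54.9 ± 3.49 FPKM) and *Gad2* higher ventrally (62.2 ± 1.63 and 68.5 ± 3.98 FPKM). Of 4 glutamatergic markers, all tested, 1 was D>V, *Slc17a6*, a vesicular glutamate transporter gene, at 10.8 ± 0.255 FPKM in dorsal and 7.21 ± 0.474 FPKM in ventral MEC (limma adjusted p = 0.00235), while *Slc17a7*, the main such gene of cortical principal cells, was at 107 ± 8.97 and 105 ± 9.67 FPKM (SD, n = 4 each) and was not called.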

How the data were processed

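Per the labels, RNA of at least 7.1 in integrity number (120 ng per sample) was amplified and sequenced in paired-end mode on an Illumina HiSeq. The authors used CASAVA 1.8, aligned with TopHat2 2.0.8 and obtained FPKM from Cuffdiff 2 with the Ensembl 73 annotation. The deposited FPKM, scaled between libraries by Cuffdiff, were used as they are. The deposited estimated counts of fragments (90.6% whole) were joined to the libraries by identical FPKM. They gave depth, counting error and the input of the edgeR and DESeq2 alternatives. Counting errors cover the counting of fragments alone. The 2 columns of fragments rescaled by the authors were not used. Of the authors' own test columns, only the mark of a gene as tested was used.

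Genes marked as tested in the deposited Cuffdiff comparison, with a mean FPKM of at least 1, were compared by limma 3.58.1. The fit used a trend, in R 4.3.3, on log2(FPKM + 1), a scale that understates the change of low genes. The mark did not follow fragment numbers alone: *Grpr*, with 178 fragments, lacked it and *Trh*, with 85, had it. Of the marked genes, 0.474% had a lower mean than *Grpr*. The alternative without an FPKM filter kept the mark as a condition. Calls needed an adjusted p under 0.05, and mean FPKM whose log2 ratio passed 0.263 in size. Ratios of members are ratios of mean FPKM. Where edgeR 4.0.16 and DESeq2 1.42.0 were run, as alternatives chosen after seeing the data, the expected counts were rounded to whole numbers first. The limma test was kept as the main test because the design named it. Genes were matched by symbol, and positions are from GENCODE M21. The scripts were tested on simulated data. The alternatives covered the constant, the FPKM filter, the ratio threshold, the trend, the scaling, the regions and each library.

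The genes, lists and tests were chosen with earlier results of these data known. Named genes are the 10 genes, called genes of the related lists with up to 3 more of each by mean FPKM, the 3 genes most like each tested gene, and markers. *Tacr3*, *Cckbr*, *Ace* *Rgs2*, *Prkca*, *Adcyap1r1* and the genes at or near 0 were named after their values were seen. Some genes that this rule takes are not reported here. The pools of mice are not given per library, so no libraries were paired.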

Additional observations from a re-analysis of the deposited data

Results flagged for a closer look

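In 36 groups of 4 libraries, 1 for each region and gene examined, a single value stood apart by Dixon's criterion, which chance meets in about 1 in 20 groups. *Penk* in the dorsal library headed D1 was at 1.56 FPKM, against 1.85 to 1.90 FPKM in the other dorsal libraries (gap over range 0.854). This library lowers the dorsal mean of *Penk*, and the call of *Penk* was lost without it.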

How the results depend on the processing

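No paired analysis was possible because neither the labels nor the columns say which libraries share a pool of mice. Counts of calls over all genes, 198 V>D and 294 D>V, and over the related lists, 4 and 4, held within 1.5 times with a constant of 0.1, no FPKM filter, a minimum of 5 FPKM, quantile normalization, no trend and no threshold on the ratio. Rescaling to one total gave 195 D>V over all genes and 1 in the lists. The main fit had 2191 genes at an unadjusted limma p under 0.05. With the regions named by the headers there were 0 V>D and 1 D>V genes (721 at an unadjusted p under 0.05) and 0 and 0 in the lists, and with the 4 libraries on which header and assignment match 0 and 0 (1240 unadjusted) and 0 and 0, a test on 2 libraries per region. In alternatives added after seeing the data, edgeR gave 391 V>D and 469 D>V (7 and 7 in the lists) and DESeq2 395 and 484 (7 and 7). The causes were not tested. Leaving out a library gave 91 to 191 V>D and 157 to 341 D>V over all genes, with the fewest V>D without the library headed V1 or D3 and the fewest D>V without V1, and the counts moved by more than 1.5 times also without D2 or D4 (V>D) and without V2 or D3 (D>V), and 1 to 4 V>D and 2 to 5 D>V in the lists.

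On the log2(FPKM + 1) scale, added after seeing the data, the differences were 1.09 for *Grp*, 1.55 for *Nts*, 0.60 for *Trh*, 1.78 for *Trhr* and 1.09 for *Oxtr*, smaller by construction. With the headers' regions the log2 ratios of mean FPKM were 0.18 for *Grp*, 0.11 for *Nts* and 0.011 for *Oxtr*. The sign of this ratio turned for *Nmbr* (-0.0067), *Ntsr1* (-0.26), *Trh* (-0.33) and *Trhr* (-0.27). Leaving out a library gave log2 ratios of 1.72 to 2.01 for *Grp*, -0.08 to 0.40 for *Nmb*, -0.35 to 0.08 for *Grpr*, 1.51 to 1.68 for *Nmbr*, 2.29 to 2.75 for *Nts*, 0.42 to 0.63 for *Ntsr1*, 1.66 to 2.41 for *Trh*, 2.59 to 2.90 for *Trhr*, 1.53 to 1.67 for *Oxtr* and -1.10 to 0.51 for *Avpr1a*. Depth limits *Avpr1a*, *Trh*, *Nmb*, *Grp* and *Grpr* most, with 10, 85, 129, 155 and 178 fragments in all.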
